A study of Mus musculus with 18 samples.

Results

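The sterol and fatty acid synthesis genes are 33 genes of the machinery with which a cell makes cholesterol and long-chain fatty acids, together with the factors that control it. They were taken as a list of gene symbols, with no threshold on a measured value. Each gene was read from the probe with the highest mean signal among the probes the array files name for it (Msmo1 stands there under an older symbol). All 33 were measured, among 15441 genes tested and 21232 genes named on the array.

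The cells were macrophages grown from mouse bone marrow, and their RNA was measured on 18 Agilent arrays with 1 colour and 1 sample each, and the samples form 6 groups of 3. Irf4-/- cells and their Irf4+/- littermate controls, both on C57BL6/J, were left untreated for 18 h (mock) or received 10 ng/ml of IL-4, for 4 h in some cultures and 18 h in others, so the 4 h values are read against an 18 h mock. The controls are heterozygous, and the macrophages were grown in recombinant CSF1 at 200 ng/ml from marrow of mice aged 8 to 12 weeks, with 2 males and 1 female named per sample and the cells of several animals pooled. The letters A, B and C mark 3 independent experiments, so there were 6 pools of cells (genotype and experiment), each measured in mock, at 4 h and at 18 h. Irf4 is a transcription factor that IL-4 induces in macrophages, and IL-4 is the cytokine that drives their alternative activation.

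Cholesterol is built from acetyl-CoA through mevalonate, isoprenoid units, squalene and lanosterol, and fatty acids are built from the same acetyl-CoA by acetyl-CoA carboxylase and fatty acid synthase, then lengthened and desaturated. Most of these enzymes are targets of the SREBP transcription factors, which stay in the endoplasmic reticulum bound to SCAP and INSIG proteins while sterols are plentiful, and which move to the Golgi and are cut free when sterols are scarce. In macrophages the pathway supplies membranes and the sterols that feed the LXR receptors and lipid efflux.

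The promoters of 4 genes are printed because their genes carry most of the results that follow. Lpin1, Insig2 and Fasn are the members whose IL-4 changes were called upward once the experiments were paired. Hmgcs1 shows the one exact match to the SREBP element in the windows of the 26 members that had a RefSeq promoter. The sequences run from 250 bases before to 50 bases after a RefSeq transcription start (GRCm38.p6) and are written in the gene's own direction. The positions are chr12:16610917-16611216 (minus strand) for Lpin1, chr1:121332540-121332839 (minus) for Insig2, chr11:120824498-120824797 (minus) for Fasn and chr13:119690101-119690400 (plus) for Hmgcs1. Capitals mark matches on either strand to the SREBP element TCACNCCAC, the E-box CACGTG, the CCAAT box and TTCNNNNGAA, the palindrome that STAT6 binds.
Lpin1: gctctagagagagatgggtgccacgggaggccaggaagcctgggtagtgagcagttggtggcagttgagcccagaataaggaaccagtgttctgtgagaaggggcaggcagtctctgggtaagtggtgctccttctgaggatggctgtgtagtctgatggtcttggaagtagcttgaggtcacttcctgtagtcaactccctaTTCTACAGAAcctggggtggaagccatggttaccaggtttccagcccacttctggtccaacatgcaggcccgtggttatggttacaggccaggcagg
Insig2: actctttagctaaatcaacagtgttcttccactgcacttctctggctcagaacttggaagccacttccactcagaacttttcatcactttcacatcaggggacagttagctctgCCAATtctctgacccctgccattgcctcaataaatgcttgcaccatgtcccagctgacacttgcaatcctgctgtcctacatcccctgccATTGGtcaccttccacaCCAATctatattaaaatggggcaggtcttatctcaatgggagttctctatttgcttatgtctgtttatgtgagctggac
Fasn: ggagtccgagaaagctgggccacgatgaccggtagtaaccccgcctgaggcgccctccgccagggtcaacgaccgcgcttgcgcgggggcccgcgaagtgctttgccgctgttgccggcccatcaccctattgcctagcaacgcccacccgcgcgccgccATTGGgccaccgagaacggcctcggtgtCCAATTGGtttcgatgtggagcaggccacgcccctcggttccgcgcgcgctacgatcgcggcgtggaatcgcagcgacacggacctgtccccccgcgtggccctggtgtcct
Hmgcs1: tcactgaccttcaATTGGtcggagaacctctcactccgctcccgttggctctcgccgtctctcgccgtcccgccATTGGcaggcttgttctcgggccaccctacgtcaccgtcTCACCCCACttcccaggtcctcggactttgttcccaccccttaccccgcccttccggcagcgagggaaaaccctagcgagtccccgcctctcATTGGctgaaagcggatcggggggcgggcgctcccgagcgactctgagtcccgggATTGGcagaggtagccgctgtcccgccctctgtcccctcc
Lpin1 held 1 match to TTCNNNNGAA. Its window, the only Lpin1 promoter in the RefSeq table, lies inside the gene and not at the gene's outermost start. The Fasn window also lies inside its gene. Insig2 held 3 CCAAT matches and Fasn 3, of which 2 in Fasn overlap, being the motif and its reverse complement. Hmgcs1 held 1 SREBP element and 4 CCAAT matches. Insig2 has 3 promoters in the RefSeq table, and the one shown is the only one of them with a match to any of the 4 motifs.

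RefSeq promoters were found for 26 of the 33 genes (34 promoters). CCAAT stood in 20 of these genes and in 61.8% of their promoters, against 37.4% of 32851 mouse promoters of the same length. CACGTG stood in 17.6% of their promoters, against 7.2%, and was found in Hsd17b7, Sc5d, Dhcr7, Insig1 and Scap. TCACNCCAC stood in 2.9%, against 1.2%. TTCNNNNGAA stood in 5.9%, those of Lpin1 and Srebf1, against 7.0% of all promoters. These matches describe the letters of these windows and say nothing about what binds there.

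The 75th percentile of an array's processed intensity lay between 719.2 and 1960.7, and 63.4% to 74.4% of its spots were well above background. The number of arrays limits the precision. Of the macrophage markers, 8 of 8 listed, Csf1r, Adgre1 and Mertk among them, were well above background on all 18 arrays. Irf4 itself was not lower in samples labelled Irf4-/-. Its log2 level lay between -0.97 and -0.53 in Irf4-/- mock cells against -1.80 to -0.36 in Irf4+/- mock cells, and between 1.17 and 2.14 against 0.81 to 2.26 after IL-4, both times together. The sources used here do not say whether its 1 probe falls within the deletion. The signal is therefore no check of the labels, and the genotype names below are those of the labels. The arrays came from 7 slides. In experiments A and B each genotype had a slide of its own, and in experiment C the slides were mixed, but no slide held the same condition of both genotypes.

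Levels are log2 of the processed intensity minus the 75th percentile of that array, so 0 is the array's 75th percentile and a difference of 1 is a doubling. All 33 genes were well above background on all 18 arrays. In bulk RNA, fewer cells of a type and less RNA per cell cannot be told apart.

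The comparison of IL-4 with mock asks what the cytokine did to these genes. No member passed limma's test with Benjamini-Hochberg adjustment over all genes (adjusted p under 0.05) in any of the 4 comparisons of IL-4 with mock, while 3.92% of all genes did at 4 h and 3.56% at 18 h in Irf4-/- cells, and 4.26% at 4 h and 4.14% at 18 h in Irf4+/- cells. At an unadjusted p under 0.05 there were 1 and 2 members in Irf4-/- cells and 3 and 1 in Irf4+/- cells at 4 h and 18 h. The median log2 change of the 33 genes was -0.07 at 4 h and -0.10 at 18 h in Irf4-/- cells, where the median of all genes was 0.08 and 0.12. The same median was 0.02 and 0.07 in Irf4+/- cells, with -0.02 and 0.03 over all genes, and the 0.02 turned to -0.026 under quantile normalization and to -0.002 under normexp background correction. No member changed by more than 1 on the log2 scale in any of these comparisons.

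The samples of 1 experiment came from littermates and deviated together, so each comparison was also made with the experiment as a block, which compares IL-4 with mock within each experiment. That fit called 2 members at 4 h and 2 at 18 h in Irf4-/- cells, against 18.2% and 18.4% of all genes. It called 4 at 4 h and 1 at 18 h in Irf4+/- cells, against 18.2% and 15.5% of all genes. As shares of the 33 genes these counts are 6.1%, 6.1%, 12.1% and 3.0%, each below the share of all genes. The members called were Lpin1 in all 4 comparisons, Insig2 in 3, and Fasn and Fads1 at 4 h in Irf4+/- cells. At least 1 of the 4 comparisons called 4 of the 33 genes with the block, against 33.7% of all genes, and none without it, against 7.28%.

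Some markers of cell types moved with IL-4 as well. Cd14, a macrophage marker that encodes an LPS co-receptor, fell, with log2 changes at 4 h and 18 h of -1.84 and -2.35 in Irf4-/- cells (adjusted p = 3.71e-04 and 3.37e-05 without the block) and of -1.64 and -2.48 in Irf4+/- cells (adjusted p = 8.13e-04 and 1.87e-05). Ccr2, the chemokine receptor of monocytes, had changes of -1.61 and -1.06 in Irf4-/- cells (adjusted p = 0.0503 and 0.273 without the block, 2.65e-05 and 6.51e-04 with it) and of -1.80 and -1.22 in Irf4+/- cells (0.0262 and 0.168 without, 9.42e-06 and 1.93e-04 with it). With the block 3 of the 8 macrophage markers were called against mock, all lower: Cd14, Mertk (-1.16 to -0.90 over the 4 comparisons) and, at 18 h, Fcgr1 (-1.65 in Irf4-/- cells and -2.19 in Irf4+/- cells). Also with the block, Clec9a, a dendritic cell marker well above background on 4 arrays, was lower after IL-4 in 3 of the 4 comparisons. In Irf4-/- cells, Flt3, another dendritic cell marker, was higher at 18 h, and Cd3g, a T cell marker well above background on 10 arrays, at both times. Log2 of the summed level of the 8 macrophage markers lay between 9.09 and 10.02 at 4 h and between 8.99 and 10.03 at 18 h in Irf4-/- cells, against 8.92 to 9.78 in mock, and between 9.52 and 9.89 and between 9.36 and 9.70 in Irf4+/- cells, against 9.65 to 9.83 in mock. The part of these markers in the changes of the 33 genes was not tested.

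**Figure D1:**
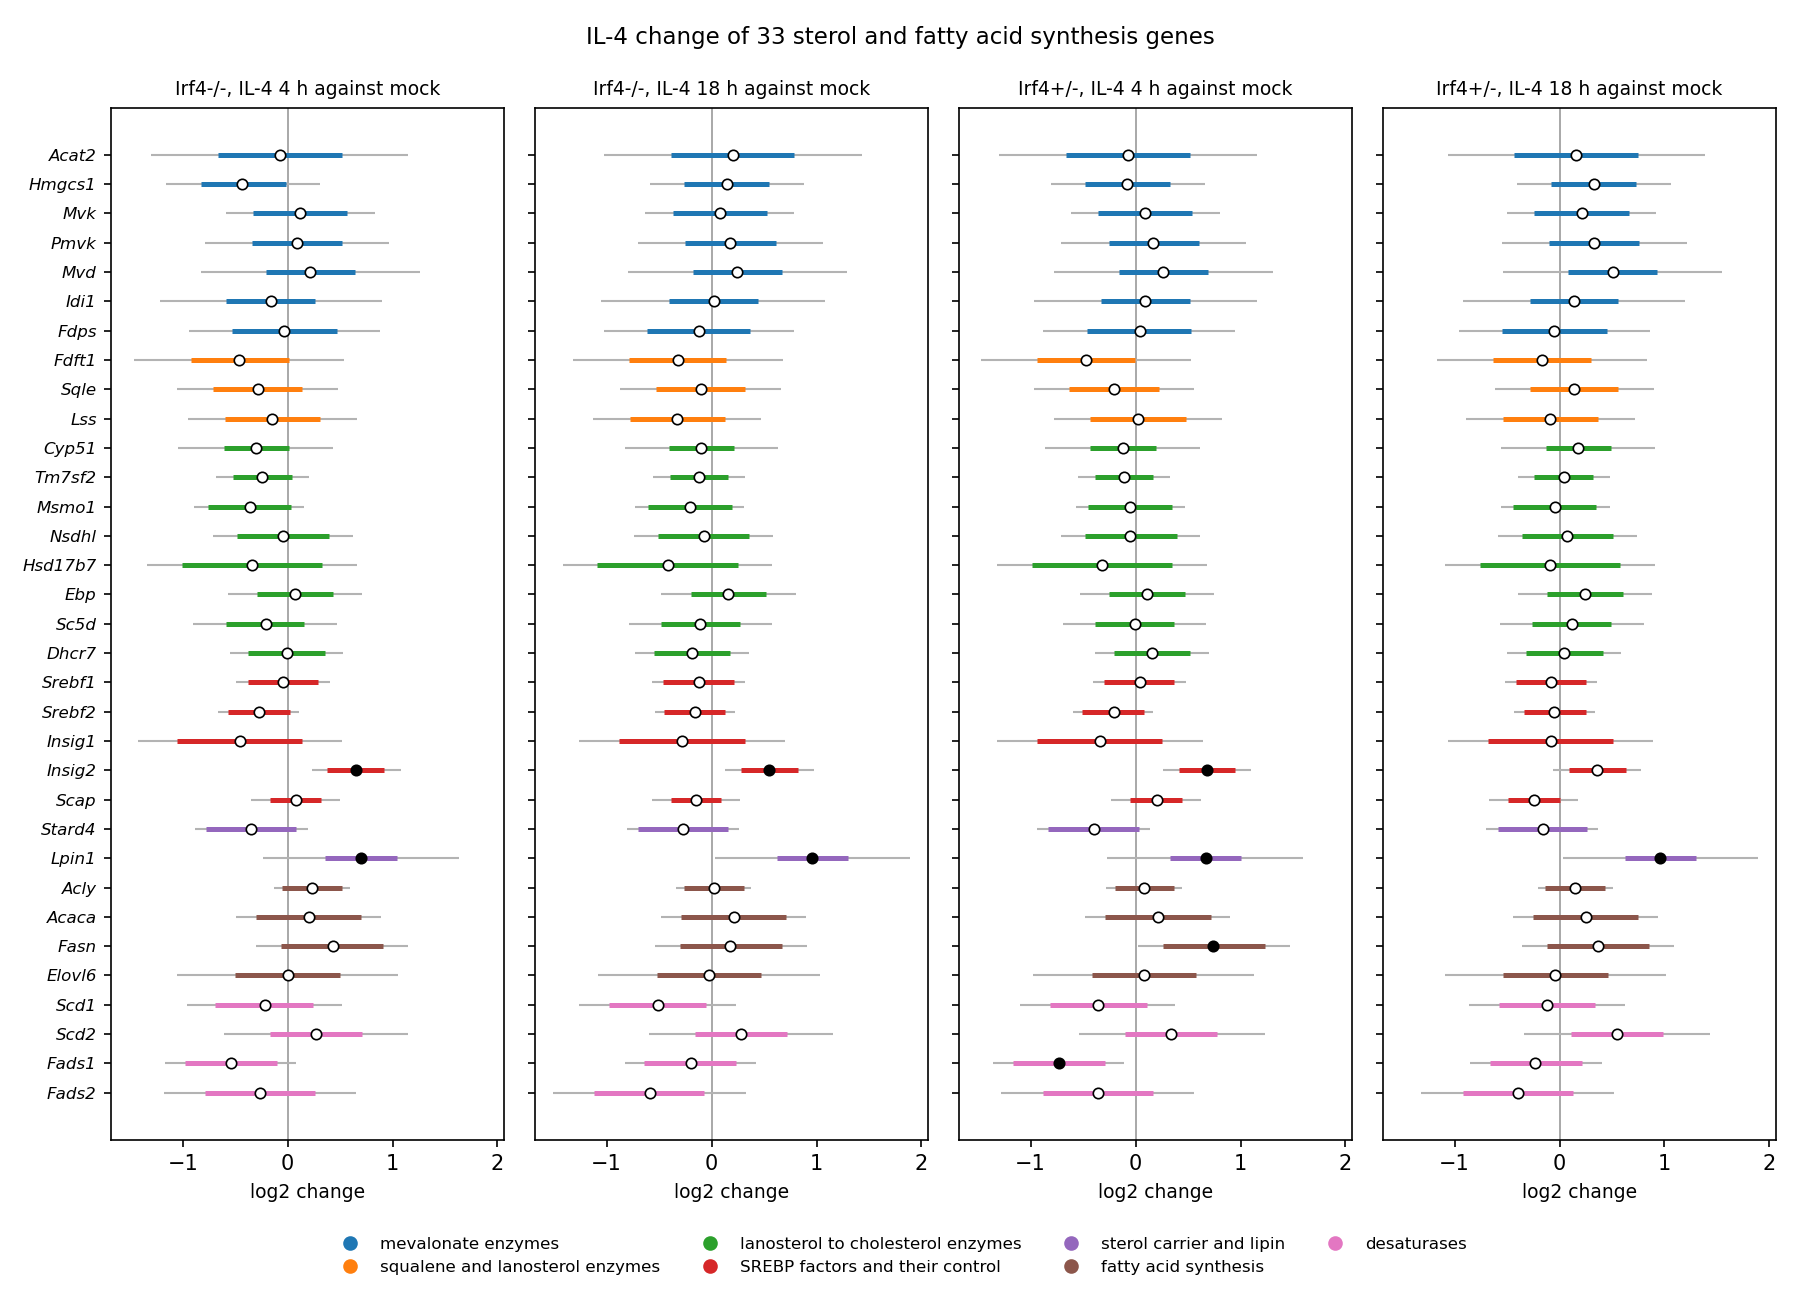
Log2 change of each of the 33 genes (rows, coloured by role) after IL-4 against mock, in Irf4-/- cells (left pair of panels) and Irf4+/- cells (right pair); points are the means over 3 experiments, grey lines the 95% intervals without a block, coloured lines the 95% intervals with the experiment as a block, and filled points passed the adjusted threshold in the blocked fit. Lpin1 is filled in all 4 panels and Insig2 in 3, and most of the other points lie within 0.5 of 0.

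Lpin1 encodes lipin 1, a phosphatidate phosphatase of triglyceride synthesis that also acts as a nuclear cofactor. In Irf4-/- cells its log2 level in experiments A, B and C was 0.25, 0.78 and 0.70 in mock, 0.51, 1.69 and 1.63 after 4 h of IL-4, and 0.90, 1.88 and 1.82 after 18 h. The levels in Irf4+/- cells were 0.39, 1.34 and 0.92 in mock, 0.79, 2.13 and 1.72 after 4 h, and 1.22, 2.48 and 1.83 after 18 h. Every experiment was higher after IL-4 than its own mock and higher at 18 h than at 4 h, with experiment A lowest throughout. The IL-4 arrays lay above all mock arrays at 18 h in Irf4-/- cells, and overlapped with them in the other 3 comparisons. The change at 18 h was 0.96 ± 0.16 in Irf4-/- cells (SE of the blocked fit, n = 3 experiments; 1.94-fold; adjusted p = 0.00114 with the block and 0.358 without) and 0.96 ± 0.16 in Irf4+/- cells (1.95-fold; adjusted p = 9.76e-04 with the block and 0.382 without). At 4 h it was 0.70 ± 0.16 in Irf4-/- cells (adjusted p = 0.00764 with the block and 0.568 without) and 0.67 ± 0.16 in Irf4+/- cells (adjusted p = 0.00987 with the block and 0.626 without).

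The other 3 Lpin1 probes had the same sign, with changes of 0.65 to 0.78 at 4 h in Irf4-/- cells and 0.73 to 0.84 in Irf4+/- cells, and of 1.00 to 1.07 at 18 h in Irf4-/- cells and 1.00 to 1.17 in Irf4+/- cells. The 18 h calls held in the blocked fit when any 1 experiment was left out (highest adjusted p = 0.0473, without experiment C in Irf4-/- cells). The 4 h calls held without experiment A and were lost without B (adjusted p = 0.106 in Irf4-/- cells and 0.118 in Irf4+/- cells) or without C (0.143 and 0.122).

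Insig2 encodes an INSIG protein, which holds the SCAP and SREBP complex in the endoplasmic reticulum. Its log2 level in Irf4-/- cells, in experiments A, B and C, was 1.60, 1.59 and 1.86 in mock, 2.13, 2.39 and 2.49 after 4 h, and 1.94, 2.22 and 2.55 after 18 h. Levels in Irf4+/- cells were 1.73, 1.37 and 1.80 in mock, 2.29, 2.13 and 2.52 after 4 h, and 1.93, 1.81 and 2.25 after 18 h. At both times and in both genotypes the 3 IL-4 arrays lay above all 3 mock arrays, most narrowly at 18 h in Irf4+/- cells, where the lowest was 1.81 and the highest mock array 1.80.

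The Insig2 change at 4 h was 0.65 ± 0.12 in Irf4-/- cells (adjusted p = 0.00289 with the block and 0.0973 without) and 0.68 ± 0.12 in Irf4+/- cells (adjusted p = 0.00205 with the block and 0.0767 without). At 18 h it was 0.55 ± 0.12 in Irf4-/- cells (adjusted p = 0.00883 with the block and 0.190 without) and 0.36 ± 0.12 in Irf4+/- cells, which did not pass (adjusted p = 0.0725 with the block and 0.569 without). Its second probe gave 0.82 and 0.57 at 4 h in Irf4-/- and Irf4+/- cells, and 0.44 and 0.26 at 18 h. These blocked calls held without experiment A. Without B the adjusted p lay between 0.0517 and 0.0994, and without C between 0.0706 and 0.166.

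**Figure D2:**
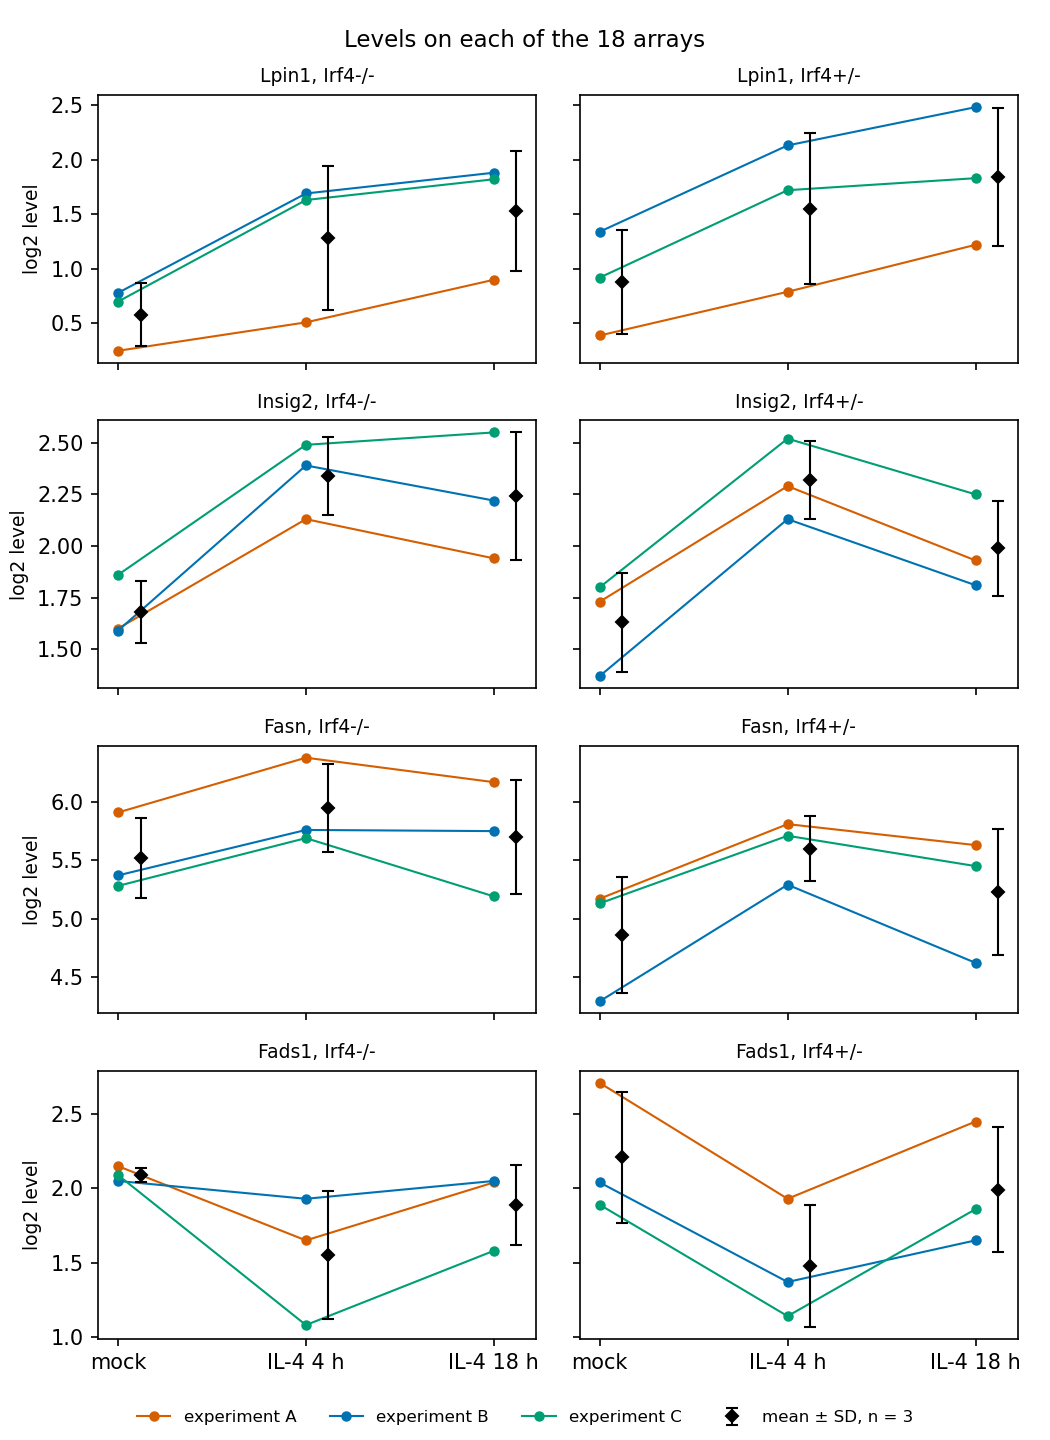
Log2 level (array's 75th percentile at 0) of Lpin1, Insig2, Fasn and Fads1 in mock, after 4 h and after 18 h of IL-4, in Irf4-/- cells (left) and Irf4+/- cells (right); coloured lines join the samples of 1 experiment and black diamonds are means ± SD (n = 3). The lines of Lpin1 run upward side by side at different heights, with experiment A lowest in both genotypes.

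None of the other regulators passed in a comparison of IL-4 with mock, with or without the experiment as a block. Srebf2 was called at 4 h in Irf4-/- cells with the pool as a random block alone. Insig1, the INSIG gene that is itself a classical SREBP target, had changes of -0.45 ± 0.28 at 4 h and -0.28 ± 0.28 at 18 h in Irf4-/- cells and of -0.34 ± 0.28 and -0.08 ± 0.28 in Irf4+/- cells (SE of the blocked fit). These signs are opposite to those of Insig2. Srebf2, the SREBP of sterol synthesis, had -0.27 ± 0.13 and -0.16 ± 0.13 in Irf4-/- cells and -0.21 ± 0.13 and -0.05 ± 0.13 in Irf4+/- cells. Srebf1, the SREBP of fatty acid synthesis, stayed within 0.12 of mock in all 4 comparisons. Scap, the escort protein gene, was 3.25, 3.77 and 3.63 at 18 h in Irf4-/- cells in experiments A, B and C, against 3.71, 3.91 and 3.72 at 4 h. Irf4+/- cells had 2.91, 3.57 and 3.46 at 18 h, against 3.66, 3.87 and 3.72 at 4 h.

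Scap was lower at 18 h than at 4 h in every experiment of both genotypes. The difference was -0.23 ± 0.11 in Irf4-/- cells (adjusted p = 0.258 with the block and 1.00 without) and -0.44 ± 0.11 in Irf4+/- cells (adjusted p = 0.0244 with the block and 0.489 without), and the call in Irf4+/- cells was lost without any 1 experiment (adjusted p = 0.137 to 0.175). With the block no member was called between 18 h and 4 h in Irf4-/- cells, against 8.35% of all genes, and Scap alone (1 member) in Irf4+/- cells, against 11.4%. Without the block no member passed in either genotype (0 and 1 members in Irf4-/- and Irf4+/- cells at an unadjusted p under 0.05), while 0.57% and 1.14% of all genes did.

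The mevalonate enzymes, which turn acetyl-CoA into the isoprenoid unit farnesyl diphosphate, gave no call in either fit. The 7 genes had a median change of -0.03 at 4 h and 0.15 at 18 h in Irf4-/- cells and of 0.09 and 0.21 in Irf4+/- cells. Hmgcs1, the HMG-CoA synthase gene, was 4.76, 4.30 and 3.95 at 4 h and 5.29, 5.06 and 4.39 at 18 h in Irf4-/- cells, against 5.17, 4.62 and 4.51 in mock. Irf4+/- cells had 4.79, 4.30 and 3.90 at 4 h and 5.27, 4.51 and 4.43 at 18 h, against 4.79, 3.87 and 4.56 in mock. Its level was higher at 18 h than at 4 h in all 6 pools, by 0.57 ± 0.19 in Irf4-/- cells (adjusted p = 0.0792 with the block) and 0.40 ± 0.19 in Irf4+/- cells (adjusted p = 0.213 with the block), which did not pass. Its other 2 probes, which were dimmer, gave -1.20 and -0.45 at 4 h and -0.69 and -0.02 at 18 h in Irf4-/- cells, where the probe used gave -0.43 and 0.15, so the sign at 18 h depends on the probe. In Irf4+/- cells they gave -0.58 and -0.21 at 4 h and 0.00 and 0.30 at 18 h, against -0.08 and 0.33 with the probe used.

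Mvd, the mevalonate diphosphate decarboxylase gene, had the largest change of this group against mock, 0.51 ± 0.20 at 18 h in Irf4+/- cells (adjusted p = 0.107 with the block). Its changes in experiments A, B and C there were 0.84, 0.45 and 0.22. Acat2 (acetoacetyl-CoA thiolase), Mvk and Pmvk (the mevalonate kinases), Idi1 (isopentenyl diphosphate isomerase) and Fdps (farnesyl diphosphate synthase) had changes between -0.16 and 0.33 in the 4 comparisons, none of which passed. The second Fdps probe, which was dimmer, gave -0.88 at 4 h and -0.60 at 18 h in Irf4-/- cells and -0.51 and -0.33 in Irf4+/- cells, where the probe used gave -0.03, -0.12, 0.04 and -0.05, and it did not pass either (adjusted p over all probes 0.27 to 1.00). The array file places the Idi1 probes on another chromosome than RefSeq does the gene, so its values are uncertain.

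The enzymes that make squalene and close it to lanosterol, Fdft1, Sqle and Lss, had negative means in Irf4-/- cells at both times, with medians of -0.28 and -0.32, and medians of -0.21 and -0.09 in Irf4+/- cells. Fdft1, the squalene synthase gene, was 1.67, 1.13 and 0.92 at 4 h in Irf4-/- cells, against 2.09, 1.31 and 1.70 in mock. Irf4+/- cells had 1.92, 0.65 and 1.14 at 4 h, against 2.47, 0.99 and 1.66 in mock. It was lower than mock in all 6 pools at 4 h, with a change of -0.46 ± 0.22 in Irf4-/- cells (adjusted p = 0.161 with the block) and -0.47 ± 0.22 in Irf4+/- cells (adjusted p = 0.160 with the block), and neither passed. Its second probe had the opposite sign, 0.71 at 4 h in Irf4-/- cells and 0.26 in Irf4+/- cells, so the direction of Fdft1 depends on the probe. Sqle, the squalene epoxidase gene, had -0.28 ± 0.20 and -0.21 ± 0.20 at 4 h in Irf4-/- and Irf4+/- cells.

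The 8 genes of the steps from lanosterol to cholesterol had a median change of -0.22 at 4 h and -0.11 at 18 h in Irf4-/- cells and of -0.05 and 0.06 in Irf4+/- cells. None passed in either fit. Cyp51, the lanosterol demethylase gene, had -0.30 ± 0.14 at 4 h in Irf4-/- cells (adjusted p = 0.167 with the block), and Msmo1, the methylsterol oxidase gene, had -0.36 ± 0.18 (adjusted p = 0.192 with the block). Hsd17b7, the sterol ketone reductase gene, had the most negative mean at 18 h in Irf4-/- cells, -0.42 ± 0.31. Dhcr7 and Sc5d (the last double-bond steps), Ebp (a sterol isomerase), Tm7sf2 (a sterol reductase) and Nsdhl (a sterol dehydrogenase) lay between -0.24 and 0.24 with the probes used. In Irf4-/- cells the other 3 Nsdhl probes gave -0.79 to -0.11 at 4 h and -0.81 to -0.16 at 18 h. They gave -0.12 to -0.02 and 0.01 to 0.10 in Irf4+/- cells. The second Sc5d probe gave -0.63 and -0.36 at 4 h and 18 h in Irf4-/- cells, and -0.58 and -0.04 in Irf4+/- cells. Stard4, which carries cholesterol between membranes, had -0.35 ± 0.20 and -0.40 ± 0.20 at 4 h in Irf4-/- and Irf4+/- cells, without passing, and its other 2 probes lay between 0.16 and 0.24 in Irf4+/- cells.

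Of the fatty acid synthesis genes, Fasn was the one called against mock with the experiment as a block. Fasn encodes fatty acid synthase and was 5.91, 5.37 and 5.28 in mock, 6.38, 5.76 and 5.69 after 4 h and 6.17, 5.75 and 5.19 after 18 h of IL-4 in Irf4-/- cells, in experiments A, B and C. Irf4+/- cells had 5.17, 4.29 and 5.13 in mock, 5.81, 5.29 and 5.71 after 4 h and 5.63, 4.62 and 5.45 after 18 h. The 4 h and mock groups overlapped in Irf4-/- cells, whereas the 3 arrays at 4 h lay above all 3 mock arrays in Irf4+/- cells.

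The Fasn change at 4 h was 0.43 ± 0.22 in Irf4-/- cells (adjusted p = 0.212 with the block and 0.696 without) and 0.74 ± 0.22 in Irf4+/- cells (1.67-fold; adjusted p = 0.0354 with the block and 0.343 without). The difference between the genotypes, -0.32 ± 0.32, did not pass (adjusted p = 1.00 with the block). At 18 h the changes were 0.18 ± 0.22 in Irf4-/- cells and 0.37 ± 0.22 in Irf4+/- cells. The second Fasn probe gave smaller values, 0.20 at 4 h in Irf4-/- cells and 0.41 in Irf4+/- cells, and -0.12 and -0.06 at 18 h in Irf4-/- and Irf4+/- cells, opposite in sign to the first at that time. The call in Irf4+/- cells was lost without experiment A (adjusted p = 0.186) or B (0.214) and held without C (0.0296).

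Acly, which makes cytosolic acetyl-CoA from citrate, Acaca, the acetyl-CoA carboxylase gene, and Elovl6, a fatty acid elongase gene, had changes between -0.04 and 0.25 in the 4 comparisons. None passed in either fit.

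Of the desaturases, Fads1 was the one called against mock with the experiment as a block. Fads1, the delta-5 desaturase gene of polyunsaturated fatty acid synthesis, was 1.65, 1.93 and 1.08 at 4 h in Irf4-/- cells, against 2.15, 2.05 and 2.09 in mock. Irf4+/- cells had 1.93, 1.37 and 1.14 at 4 h, against 2.71, 2.04 and 1.89 in mock. Every experiment was lower at 4 h than in mock, and in Irf4-/- cells all 3 arrays lay below the mock arrays. At 18 h the levels were 2.04, 2.05 and 1.58 in Irf4-/- cells and 2.45, 1.65 and 1.86 in Irf4+/- cells. The change at 4 h was -0.54 ± 0.20 in Irf4-/- cells (adjusted p = 0.0830 with the block and 0.475 without) and -0.73 ± 0.20 in Irf4+/- cells (0.60-fold; adjusted p = 0.0231 with the block and 0.242 without). The call in Irf4+/- cells was lost without any 1 experiment (adjusted p = 0.0616 to 0.157), with changes of -0.76 to -0.71.

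Fads2, the delta-6 desaturase gene, lies near Fads1 on chromosome 19 and was lower than mock in all 6 pools at both times. Its changes were -0.26 ± 0.24 at 4 h and -0.59 ± 0.24 at 18 h in Irf4-/- cells and -0.36 ± 0.24 and -0.40 ± 0.24 in Irf4+/- cells, none of which passed (lowest adjusted p with the block 0.107). The Fads2 change at 18 h in Irf4-/- cells was called with the slide or the pool as a random block. It was also called in the blocked fit without experiment B. Scd1 and Scd2, stearoyl-CoA desaturase genes that lie near each other on the same chromosome, had opposite signs. Scd1 had -0.51 ± 0.21 at 18 h in Irf4-/- cells (adjusted p = 0.112 with the block) and -0.12 ± 0.21 in Irf4+/- cells, and Scd2 had 0.28 ± 0.20 and 0.55 ± 0.20 (adjusted p = 0.0952 with the block in Irf4+/- cells). None of the 4 values passed with or without the experiment as a block. With the slide or the pool as a random block, Scd1 was called at 18 h in Irf4-/- cells. Those blocks also called Scd2 at 18 h in Irf4+/- cells, as did the blocked fit without experiment B.

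Counted by direction over the 3 experiments, 22 of the 33 genes (66.7%) moved the same way in all 3 at 4 h in Irf4-/- cells and 18 (54.5%) at 18 h, against 63.9% and 62.3% of all genes. Of the 33 genes in Irf4+/- cells, 12 (36.4%) did at 4 h and 16 (48.5%) at 18 h, against 60.9% and 56.7% of all genes. In Irf4-/- cells at 4 h, 14 of the 22 were lower and 8 higher. The IL-4 and mock arrays of experiments A and B shared a slide within each genotype, so these changes do not cross slides there.

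These genes ranged more between the pools of cells than between the groups. Over the 33 genes, the median range between the 6 pool means was 1.11, against 0.48 between the 6 group means, and the pools ranged wider than the groups for 32 of the 33, the exception being Insig2. Over all genes the corresponding medians were 0.89 and 0.58, and the pools ranged wider for 75.9%. Relative to each gene's mean over the 18 arrays, the median member stood at 0.36 in Irf4-/- A, 0.04 in Irf4-/- B and -0.14 in Irf4-/- C, and at 0.36 in Irf4+/- A, -0.47 in Irf4+/- B and -0.12 in Irf4+/- C. The median of all genes in those pools was 0.10, -0.07, -0.04, 0.18, 0.01 and -0.10 in the same order.

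Of the 33 genes, 30 were above their mean in Irf4-/- A and 29 in Irf4+/- A, and 30 were below it in Irf4+/- B. Fdps, the farnesyl diphosphate synthase gene, was 4.85, 4.42 and 4.44 in Irf4-/- mock cells and 5.07, 3.53 and 4.27 in Irf4+/- mock cells, in experiments A, B and C. Elovl6 was 1.73, 0.48 and 0.53 in Irf4-/- mock cells and 0.92, -0.43 and 0.60 in Irf4+/- mock cells. Lpin1 and Scap went the other way: Lpin1 stood at -0.72 and -0.48 in the A pools of Irf4-/- and Irf4+/- cells and at 0.71 in Irf4+/- B, and Scap at -0.10 and -0.32 in the A pools. In Irf4+/- cells 29 members were higher in A than in B in mock, at 4 h and at 18 h alike, with a median difference of 0.85 where that of all genes was 0.18, and 49.1% of all genes were higher in all 3 conditions. The other differences between pools were smaller. In Irf4-/- cells the median member differed by 0.41 between A and B (0.16 over all genes), by 0.56 between A and C (0.14) and by -0.13 between C and B (0.00), with 23, 28 and 2 members higher in all 3 conditions, against 47.3%, 45.6% and 29.1% of all genes. In Irf4+/- cells it differed by 0.49 between A and C (0.27 over all genes) and by 0.36 between C and B (-0.10), with 27 and 18 members higher in all 3 conditions, against 55.7% and 27.1%.

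**Figure D3:**
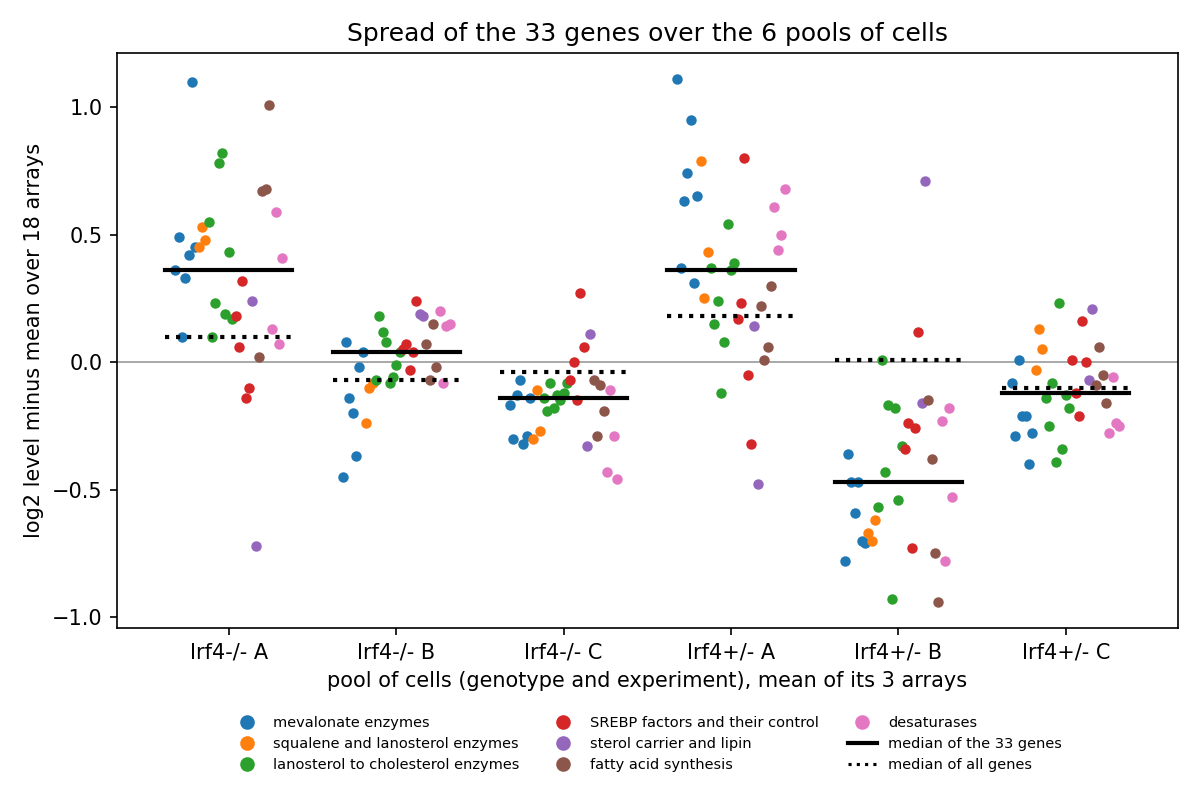
Log2 level of each of the 33 genes minus its mean over the 18 arrays, averaged over the 3 arrays of each pool of cells (Irf4-/- pools left, Irf4+/- pools right), with colours for the roles, solid bars for the median of the 33 genes and dotted bars for the median of all genes. The solid bars stand at 0.36 in both A pools and at -0.47 in Irf4+/- B, further from 0 than the dotted bars there.

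By role, the mevalonate enzymes ranged most between the pools of Irf4+/- cells, with medians of 0.65 in A, -0.59 in B and -0.21 in C. The fatty acid synthesis genes stood at 0.67 in Irf4-/- A and at -0.56 in Irf4+/- B. The SREBP factors and their partners ranged least, from 0.17 in Irf4+/- A to -0.26 in Irf4+/- B. Other cell types were measured beside this. Log2 of the summed level of 5 neutrophil markers averaged 5.66 in Irf4-/- A and between 3.86 and 4.50 in the other 5 pools, and that of 8 macrophage markers 9.0 in Irf4-/- A and between 9.51 and 9.89 in the others; 4 of the 5 neutrophil markers, S100a8 and S100a9 among them, were well above background on all 18 arrays. Their part in the levels of these genes was not tested.

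The design also asks whether loss of Irf4 changes these genes. No member passed the test between genotypes in mock, at 4 h, at 18 h or averaged over the 3 conditions (0, 0, 0 and 2 members at an unadjusted p under 0.05), and of all genes 0%, 0%, 0.0259% and 0% did. The median log2 difference, Irf4-/- minus Irf4+/-, was 0.16 in mock, 0.08 at 4 h and 0.03 at 18 h, where that of all genes was -0.06, -0.01 and 0.02. With the block, 0 members passed in each single condition, against 0.0324%, 0.0259% and 0.434% of all genes. In the average over conditions the block called 4 members, Idi1, Nsdhl, Fasn and Elovl6 (12.1%, against 8.15% of all genes).

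All 4 were higher in Irf4-/- cells, by 0.53 ± 0.11 for Idi1 (adjusted p = 0.0190 with the block and 0.644 without), 0.45 ± 0.12 for Nsdhl (0.0348 and 0.464), 0.49 ± 0.13 for Fasn (0.0382 and 0.469) and 0.53 ± 0.13 for Elovl6 (0.0319 and 0.640). The difference was smallest in experiment C. It was 0.79, 0.69 and 0.12 for Idi1 in A, B and C, 0.62, 0.89 and -0.04 for Fasn, 0.71, 0.92 and -0.03 for Elovl6, and 0.90, 0.25 and 0.21 for Nsdhl. The average takes the 3 conditions of a pool as separate samples, although they are the same cells, and with the pool as a random block the adjusted p was 1.00 for each of the 4 genes. With the slide as a random block it was 0.994 for each. Of the 8 macrophage markers, 2 were called in the same blocked average, and both were lower in Irf4-/- cells: Csf1r, the CSF1 receptor gene, with a difference of -0.40 ± 0.08 (adjusted p = 0.0148 with the block and 0.298 without) and Mertk, a receptor for the uptake of dying cells, with -0.33 ± 0.09 (0.0441 and 0.921). Their part in the differences of the 4 genes was not tested.

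None of the 4 calls held without experiment A (adjusted p = 0.108 to 0.227) or without B (0.209 to 0.346), and all held without C (0.00605 to 0.0448). The second Fasn probe gave 0.38, the second Idi1 probe 0.36 and the other 3 Nsdhl probes 0.15 to 0.32. As said above, the array file places the Idi1 probes on another chromosome than RefSeq does the gene, so the values of both are uncertain. Probes also differed for members that were not called. The second Fdps probe gave 0.84 averaged over conditions, where the probe used gave 0.23. The other 3 Acaca probes gave -0.34 to 0.02, where the probe used gave 0.21. In A and B each genotype had its own slide, so slide and genotype cannot be told apart there.

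**Figure D4:**
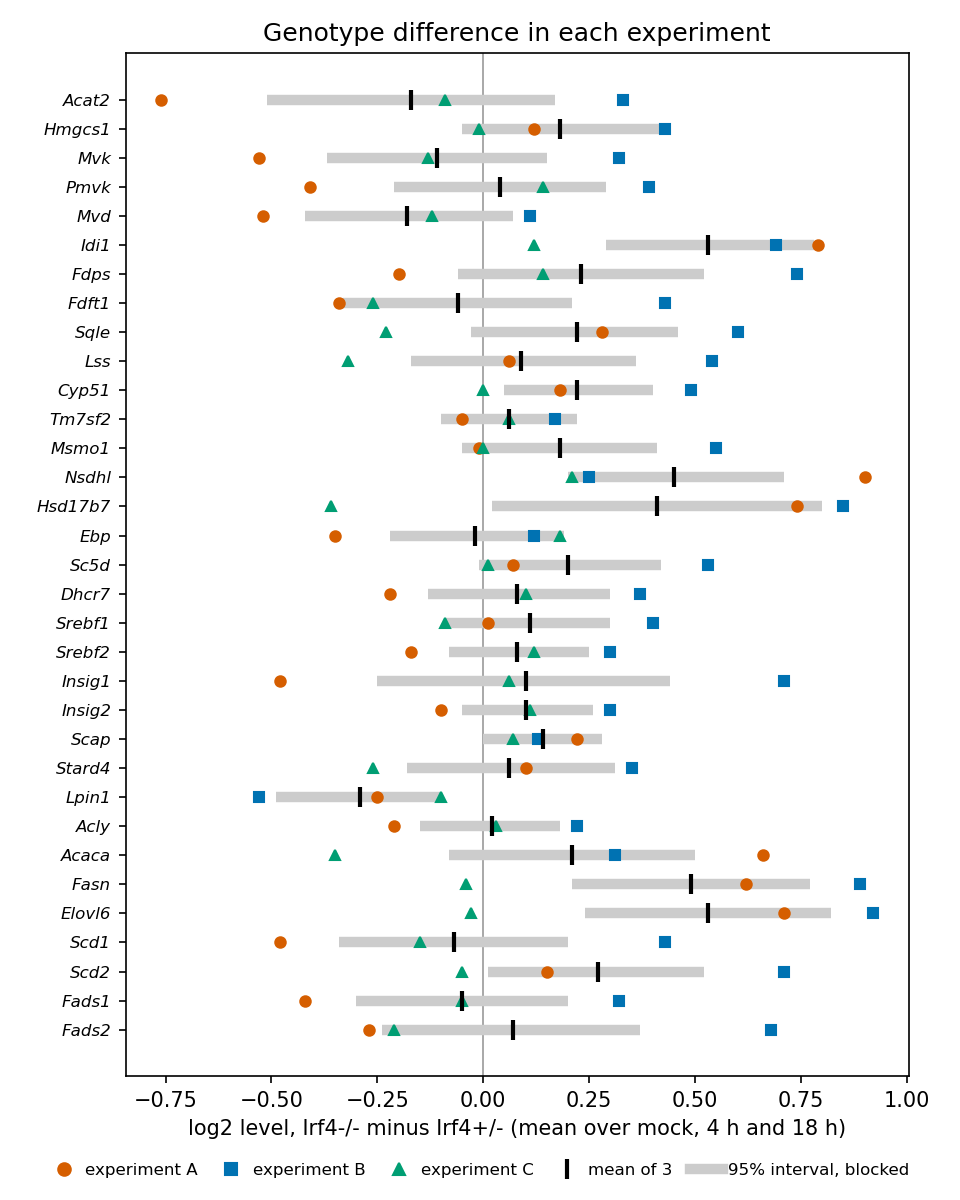
Log2 level in Irf4-/- minus Irf4+/- cells for each of the 33 genes (rows), averaged over mock, 4 h and 18 h, in experiments A (circles), B (squares) and C (triangles), with the mean (black mark) and the 95% interval of the fit with the experiment as a block (grey bar). The squares lie right of 0 for 32 of the 33 genes, whereas circles and triangles lie on both sides.

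The 3 experiments differed from each other in this comparison. Averaged over conditions, 32 of the 33 genes were higher in Irf4-/- than in Irf4+/- cells in experiment B, with a median difference of 0.40, and the exception was Lpin1 (-0.53). In each of experiments A and C, 15 were higher in Irf4-/- cells, with medians of -0.05 and -0.03. The share of all genes that were higher in Irf4-/- cells was 44.7% in A, 41.5% in B and 60.6% in C. The same sign in all 3 experiments was seen for 8 members in mock, 8 at 4 h and 5 at 18 h (24.2%, 24.2% and 15.2%), against 33.1%, 23.8% and 29.5% of all genes.

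Lpin1 was lower in Irf4-/- cells in all 3 experiments, with differences of -0.25, -0.53 and -0.10 averaged over conditions, a mean of -0.29 ± 0.09 that did not pass (adjusted p = 0.0615 with the block and 0.816 without). Cyp51, with 0.22 ± 0.08, and Hsd17b7, with 0.41 ± 0.18, did not pass either (adjusted p = 0.102 and 0.159 with the block). Hsd17b7 was spread widest over the experiments, at 0.74, 0.85 and -0.36.

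No gene, member or other, passed the test of whether the IL-4 change differed between genotypes (0% of all genes with or without the block, at 4 h and at 18 h, and no member at an unadjusted p under 0.05 in either fit). For Lpin1 the difference of the IL-4 change was 0.03 at 4 h and -0.00 at 18 h, with 95% intervals of the blocked fit of -0.45 to 0.51 and -0.48 to 0.48. For Insig2 it was -0.03 (-0.41 to 0.35) and 0.19 (-0.19 to 0.58). Over the 33 genes the half-width of this interval lay between 0.34 and 0.95. The interval is not adjusted for the number of genes, so a difference had to exceed its half-width to pass the adjusted test. The median difference was -0.07 at 4 h and -0.15 at 18 h, where that of all genes was 0.03 and 0.07.

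Further lists hold related genes. Of 20 other sterol genes (sterol transport, other branches and uptake), all tested, none was called in any of the 12 comparisons without the block, and 7 (35.0%) were in at least 1 with it. Over all genes 7.47% were called in at least 1 of the 12 comparisons without the block and 39.5% with it. Their median change after IL-4 was -0.01 at 4 h and -0.02 at 18 h in Irf4-/- cells and 0.03 and 0.12 in Irf4+/- cells. Of 27 other fatty acid genes, 4 were called without the block, 2 upward and 2 downward, and 14 (51.9%) with it. Of 12 genes of sterol efflux and LXR signalling, 1 was called, and 8 (66.7%) with the block.

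Dgat2 and Agpat3, genes of triglyceride and phospholipid assembly, rose with IL-4. Dgat2, the enzyme of the last step to triglyceride, rose at 4 h by 1.77 ± 0.33 in Irf4-/- cells (adjusted p = 0.00602) and 1.70 ± 0.33 in Irf4+/- cells (adjusted p = 0.00704; SE of the fit without the block). At 18 h it was 1.17 ± 0.33 and 1.16 ± 0.33 above mock (adjusted p = 0.0718 and 0.0699 without the block, 7.47e-04 and 7.03e-04 with it). Agpat3, a lysophospholipid acyltransferase gene, rose at 18 h by 1.16 ± 0.17 in Irf4-/- cells (adjusted p = 9.58e-04) and 1.06 ± 0.17 in Irf4+/- cells (adjusted p = 0.00175), and at 4 h by 0.67 ± 0.17 and 0.73 ± 0.17 (adjusted p = 0.0417 and 0.0240).

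Mid1ip1, whose protein stimulates acetyl-CoA carboxylase, fell at 4 h by 1.12 on the log2 scale in Irf4-/- cells (adjusted p = 0.0142) and by 1.46 in Irf4+/- cells (adjusted p = 0.00213). Its change at 18 h was -0.29 and -0.57 in Irf4-/- and Irf4+/- cells, without passing. Acsl1, a long-chain acyl-CoA synthetase gene, fell at 18 h by 0.73 in Irf4+/- cells (adjusted p = 0.0243), and its change of -0.48 in Irf4-/- cells passed with the block alone (adjusted p = 0.0219 with it and 0.187 without). Nr1h3, the gene of LXR alpha, fell at 4 h by 1.19 in Irf4-/- cells (adjusted p = 0.00826) and by 1.23 in Irf4+/- cells (adjusted p = 0.00599), and at 18 h it was -0.31 and -0.30 from mock, without passing. None of these 5 genes passed a test between genotypes in either fit.

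Of 5 adipocyte markers on the array, 1 (Cidec) was well above background on all 18 arrays and 1 (Lep) on none. Adipoq, the adiponectin gene, was well above background on 13 of the 18 arrays and rose with IL-4 at 4 h and 18 h in Irf4-/- cells (adjusted p = 0.00431 and 0.00322) and in Irf4+/- cells (adjusted p = 0.00286 and 0.00186). Log2 of the summed level of the 5 markers lay between -3.54 and -1.62 at 4 h and between -3.05 and -1.94 at 18 h in Irf4-/- cells, against -4.86 to -3.21 in mock. In Irf4+/- cells it lay between -2.91 and -0.66 and between -2.33 and -0.38, against -4.60 to -3.15 in mock. The other adipocyte markers that could be tested did not pass: Cidec had 0.08 and 0.44 at 4 h and 18 h in Irf4-/- cells and -0.15 and -0.05 in Irf4+/- cells, and Plin1, well above background on 15 arrays, had 0.01 and -0.36 in Irf4-/- cells and -0.13 and 0.32 in Irf4+/- cells (adjusted p = 0.849 to 1.00 without the block). Cfd was well above background on 1 array. The part of Adipoq in the changes of Lpin1, Dgat2 and Agpat3 was not tested.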

How the data were processed

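Each sample was 1 one-colour array. The authors scanned the arrays and deposited processed intensity per spot from Agilent Feature Extraction 9.5.1, background-subtracted and detrended within the array, per the file headers. They also deposited a table of log2 values of the same arrays, whose centring and scale are not given in the sources used here. Over 27505 probes its columns correlated with the scanner values at 0.9981 or more, and their medians lay between -0.18 and 0.21.

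Processed intensities were taken to log2 and each array's 75th percentile was subtracted. Control spots and outlier spots (63 to 182 an array) were left out. Of 41174 probes, 27505 were kept, each well above background on every array of 1 group or more, and each gene was read from its kept probe with the highest mean. Probes were named by accession or symbol through RefSeq. The 15441 genes were fitted with limma 3.58.1 (R 4.3.3) as 6 group means over all 18 arrays, with Benjamini-Hochberg adjustment and a threshold of 0.05. The fit was also run on simulated levels with an experiment effect but no pool or slide effect, so that run does not cover such effects. Tables and figures used Python 3.11.15, pandas 2.3.3 and matplotlib 3.10.9.

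The labels give the letters A, B and C as experiments with littermates. Deviations from the group means correlated at 0.431 to 0.876 within a letter (45 pairs) and at -0.654 to 0.265 between letters (90 pairs), so the letters pair the samples, and the fit with the letter as a replicate block stands beside each result whose call it changes. Other alternatives were the slide or the pool as a random block, other background correction, scaling, filters and probes, fewer groups in the fit, and each array left out.

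The members and lists were chosen with earlier results of these data known. All 33 members are named. From each other list, at most 4 genes are named, those with the largest change among the genes called without the block. Deletion of Irf4 was taken from the labels.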

Additional observations from a re-analysis of the deposited data

How the results depend on the processing

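No member was called under normexp background correction, median or quantile scaling, no or a stricter filter on dim probes, the mean of a gene's probes, or only the groups compared, nor without any 1 of the 18 arrays (0 to 0 in each of the 12 comparisons). Counts of members moved with the blocks, in the order IL-4 against mock at 4 h and 18 h in Irf4-/- cells and then at 4 h and 18 h in Irf4+/- cells. The replicate block called 2, 2, 4 and 1, the slide as a random block 5, 4, 7 and 3 (against 26.8%, 27.4%, 32.8% and 22.3% of all genes), and a random block for the pool 8, 4, 6 and 4 (against 34.7%, 36.1%, 30.9% and 26.4%). Beside Lpin1, Insig2, Fasn and Fads1, the slide or pool block called Fdft1, Msmo1, Srebf2, Stard4, Acly, Scd1, Scd2 and Fads2, each in at least 1 of these 4 comparisons. Between 18 h and 4 h, in Irf4-/- and then Irf4+/- cells, the replicate block called 0 and 1, the slide block 2 and 3 (22.3% and 18.9% of all genes), and the pool block 1 and 3 (20.7% and 23.1%). In the genotype difference averaged over conditions the replicate block called 4 and the slide and pool blocks 0. Limma on the authors' deposited table called 1 member (Lpin1) at 4 h and 1 at 18 h in Irf4-/- cells, against 7.09% and 6.37% of all genes. Leaving out a whole experiment, with the block, was added after seeing the data. Without A the 4 counts against mock were 2, 2, 2 and 1 (against 10.4%, 12.4%, 11% and 9.25% of all genes), without B 0, 2, 0 and 2 (9.09%, 7.28%, 8.04% and 8.31%), and without C 0, 1, 1 and 1 (6.37%, 5.84%, 8.52% and 6.51%). The averaged genotype difference had 0, 0 and 7 calls without A, B and C, against 1.41%, 0.0453% and 15.9% of all genes. No member changed sign under an alternative that called it, but values that were not called did: 273 of 396 (33 genes in 12 comparisons) had the other sign under at least 1 alternative, such as Fdft1 at 4 h in Irf4-/- cells (-0.46, and 0.13 with the mean of its probes). The median of the members also changed sign under at least 1 alternative in each of the 12 comparisons. It lay between -0.325 and 0.069 at 4 h and between -0.262 and 0.053 at 18 h against mock in Irf4-/- cells, and between -0.32 and 0.207 and between -0.181 and 0.323 in Irf4+/- cells. Between 18 h and 4 h in Irf4-/- cells it was 0.03, and -0.017 under normexp. Over all genes the 4 comparisons with mock gave 605, 549, 658 and 640 calls, against 2804, 2836, 2815 and 2393 with the replicate block, 338, 247, 212 and 164 with only the groups compared, 4134, 4236, 5067 and 3450 with the slide block, 5357, 5577, 4778 and 4070 with the pool block, and down to 294, 275, 429 and 405 without 1 array. The authors' table was not run for comparisons with Irf4+/- mock, nor only the groups compared for the averaged difference. With 3 experiments, the 95% interval of a member's IL-4 change had a median half-width of 0.73 without the block and 0.43 with it.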
